A study of Mus musculus with 6 samples.

Results

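The genes described here are 6 that draw and feed neutrophils: the CXC chemokine ligands Cxcl1, Cxcl2, Cxcl3 and Cxcl5, the granulocyte growth factor Csf3, and Cxcr2, the receptor that the ligands share. They were chosen by gene symbol, and all 6 of 6 were found among the 27933 genes of each library. Levels were taken over barcodes with at least 200 detected genes. In background, Cxcl1, Cxcl2, Cxcl3 and Cxcl5 bind Cxcr2 on mouse neutrophils and guide them from blood into tissue, while Csf3 (G-CSF) acts on the bone marrow to make and release neutrophils. Transcription of the ligand genes is known to follow IL-1, TNF and bacterial products through NF-kB, and tumours of the 4T1 line are known to secrete G-CSF and to expand neutrophils in the host.

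The data are Drop-seq single-cell libraries, in which every captured transcript is tagged with the barcode of its cell and with a unique molecular identifier (UMI). They come from tumours that Balb/c mice grew from 4T1 cells, a mammary carcinoma line of the same strain. The FVIO-MHT group (3 libraries) had ferrimagnetic vortex iron oxide nanorings injected into the tumour at 0.1 mg per cm3 of tumour volume, then an alternating magnetic field of 365 kHz for 10 min that heats the rings, and was taken after 24 hours. The PBS group (3 libraries) was given saline and taken at the same time. The sources used here do not give whether the field was applied to PBS mice too, the age of the mice, or whether each replicate is another mouse. The p-values therefore measure only the spread among these 6 libraries, which may be technical.

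Depth over all listed barcodes ran from 706300 to 2207534 UMIs in FVIO-MHT libraries and from 678337 to 2100443 UMIs in PBS libraries. FVIO-MHT replicate 1 stood apart. It kept 332 barcodes holding 25.7% of its UMIs, against 63.7% to 88.4% in the other 5 libraries. None of the 8 tumour epithelial markers (Epcam and keratins among them) had a UMI in its 181213 kept UMIs, whereas all 8 were found in each other library. PBS replicates 2 and 3 shared 33 kept barcodes, where 0.042 would be met by chance, and no other pair shared more than 1. The profiles of the shared barcodes were alike (median r across genes 0.552 for the same barcode, against 0.261 for other barcodes of the 2 libraries), so those cells may not be independent between these libraries. Cell classes were named from marker genes after clustering the cells without the 6 genes, so that a class was not defined by them. In FVIO-MHT replicate 3, 1181 of 2316 cells fell in an unnamed cluster rich in haemoglobin transcripts that also carried keratins.

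The sequences just upstream of the ligand genes are shown because Cxcl1, Cxcl2 and Cxcl3 lie in 1 cluster on chromosome 5 and carry the same pair of short motifs there. They are RefSeq sequences of GRCm38.p6, plus strand, from 120 bases before the RefSeq start to the base before the first annotated transcript start: chr5:90891125-90891240 for Cxcl1, chr5:90903779-90903870 for Cxcl2, chr5:90785981-90786100 for Cxcl3 and chr1:74153874-74153988 for Cxcr2. Capitals mark the NF-kB consensus motif (a kB site, to which NF-kB proteins can bind) and ATAAAAGG, a TATA-type box.
Cxcl1: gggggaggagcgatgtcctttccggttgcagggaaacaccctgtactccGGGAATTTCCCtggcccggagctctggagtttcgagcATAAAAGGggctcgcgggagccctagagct
Cxcl2: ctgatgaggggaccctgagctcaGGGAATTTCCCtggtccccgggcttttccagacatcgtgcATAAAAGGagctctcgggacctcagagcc
Cxcl3: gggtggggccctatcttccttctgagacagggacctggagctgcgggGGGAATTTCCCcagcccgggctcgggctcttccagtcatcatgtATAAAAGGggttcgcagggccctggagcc
Cxcr2: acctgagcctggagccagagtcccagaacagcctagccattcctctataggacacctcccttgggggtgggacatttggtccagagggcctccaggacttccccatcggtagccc

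The kB match began 71 bases before the RefSeq start in Cxcl1, 97 in Cxcl2 and 73 in Cxcl3, and the TATA-type letters began 34, 57 and 29 bases before it. In each of the 3 genes the kB consensus was also met on the minus strand, 1 base further on, overlapping the plus-strand match. The kB and TATA-type matches did not overlap each other. Searched on both strands, the kB consensus was present in 1199 of 32851 RefSeq windows of 120 bases (3.65%) and ATAAAAGG in 311 (0.947%). Neither was found in the Cxcr2 window, which says only that those letters are not there. In the GENCODE annotation of GRCm38, all on the plus strand, Cxcl5 lies at chr5:90759360-90761624, Cxcl3 at chr5:90786103-90789600, Cxcl1 at chr5:90891241-90893115 and Cxcl2 at chr5:90903871-90905938. Csf3 lies at chr11:98701263-98703629 and Cxcr2 at chr1:74153989-74161246. Upstream sequences of Cxcl5 and Csf3 are not shown.

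Over whole libraries, Cxcl2, Cxcl3 and Cxcr2 were high in FVIO-MHT replicates 1 and 2 and low in FVIO-MHT replicate 3 and in all PBS libraries. The same 2 libraries had the most neutrophil-like cells, and PBS replicate 1 was the highest PBS library both in that share and in these 3 genes. Cxcl1, Cxcl5 and Csf3 had no such order. No gene passed the threshold between the groups. Levels below are CPM, a gene's UMIs scaled to a total of 1000000 UMIs, over the kept barcodes of a library, and in such sums fewer cells of a type and less RNA per cell cannot be told apart.

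Neutrophil-like cells, named from S100a8, S100a9, Retnlg, Csf3r and other markers, made up 79.8% of FVIO-MHT replicate 1 (264 of 331 cells; 95% Clopper-Pearson interval 75.0 to 84.0%), 37.7% of replicate 2 (34.8 to 40.7%) and 0.216% of replicate 3 (0.0701 to 0.503%). In PBS replicates 1 to 3 they made up 5.96%, 0.619% and 1.69%. The groups overlapped, since FVIO-MHT replicate 3 had the lowest share of the 6 libraries. Mean shares were 39.2% ± 39.8 with FVIO-MHT, against 2.76% ± 2.83 for PBS (SD, n = 3 each), and the two-sided exact permutation test of the difference gave p = 0.4, where 0.1 is the smallest p that 3 against 3 libraries allow. The difference of means, 36.5 percentage points, was 16.2 without FVIO-MHT replicate 1, 56.0 without FVIO-MHT replicate 3 and 12.9 with a 400-gene minimum. Shares depended on that minimum. At 100 genes they were 92.8%, 48.0% and 1.71% in FVIO-MHT replicates 1 to 3, against 15.7%, 2.54% and 10.1% in PBS replicates 1 to 3.

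Cxcl2, the chemokine also called MIP-2, reached 35042, 6002 and 723 CPM in FVIO-MHT replicates 1, 2 and 3, against 1107, 439 and 731 CPM in PBS replicates 1, 2 and 3. FVIO-MHT replicates 1 and 2 lay above every PBS library and FVIO-MHT replicate 3 lay among them. Cxcl3, a closely related ligand (DCIP-1), had 6484, 252 and 7.44 CPM in the FVIO-MHT libraries, against 104, 4.31 and 17.0 CPM in the PBS libraries. Its FVIO-MHT values spread further than those of any of the other 5 genes, from the highest level of the 6 libraries to the second lowest. Cxcr2 had 552, 414 and 14.3 CPM with FVIO-MHT, against 40.9, 12.9 and 4.25 CPM with PBS. The groups overlapped here too, because PBS replicate 1 exceeded FVIO-MHT replicate 3.

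Cxcl1, also called KC, had 1396, 834 and 231 CPM in FVIO-MHT replicates 1 to 3, against 1089, 1480 and 777 CPM in PBS replicates 1 to 3. Cxcl5, also called LIX, had 110, 195 and 33.8 CPM in the FVIO-MHT libraries, against 278, 24.2 and 46.7 CPM in the PBS libraries. Csf3 had 320, 221 and 59.0 CPM with FVIO-MHT, against 404, 63.0 and 161 CPM in PBS libraries. For these 3 genes the groups overlapped, FVIO-MHT replicate 3 was the lowest of its group, and the highest value of all was in a PBS library. Together the 6 genes held 4.39%, 0.792% and 0.107% of UMIs in FVIO-MHT replicates 1 to 3, against 0.302%, 0.202% and 0.174% in PBS replicates 1 to 3.

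**Figure D1:**
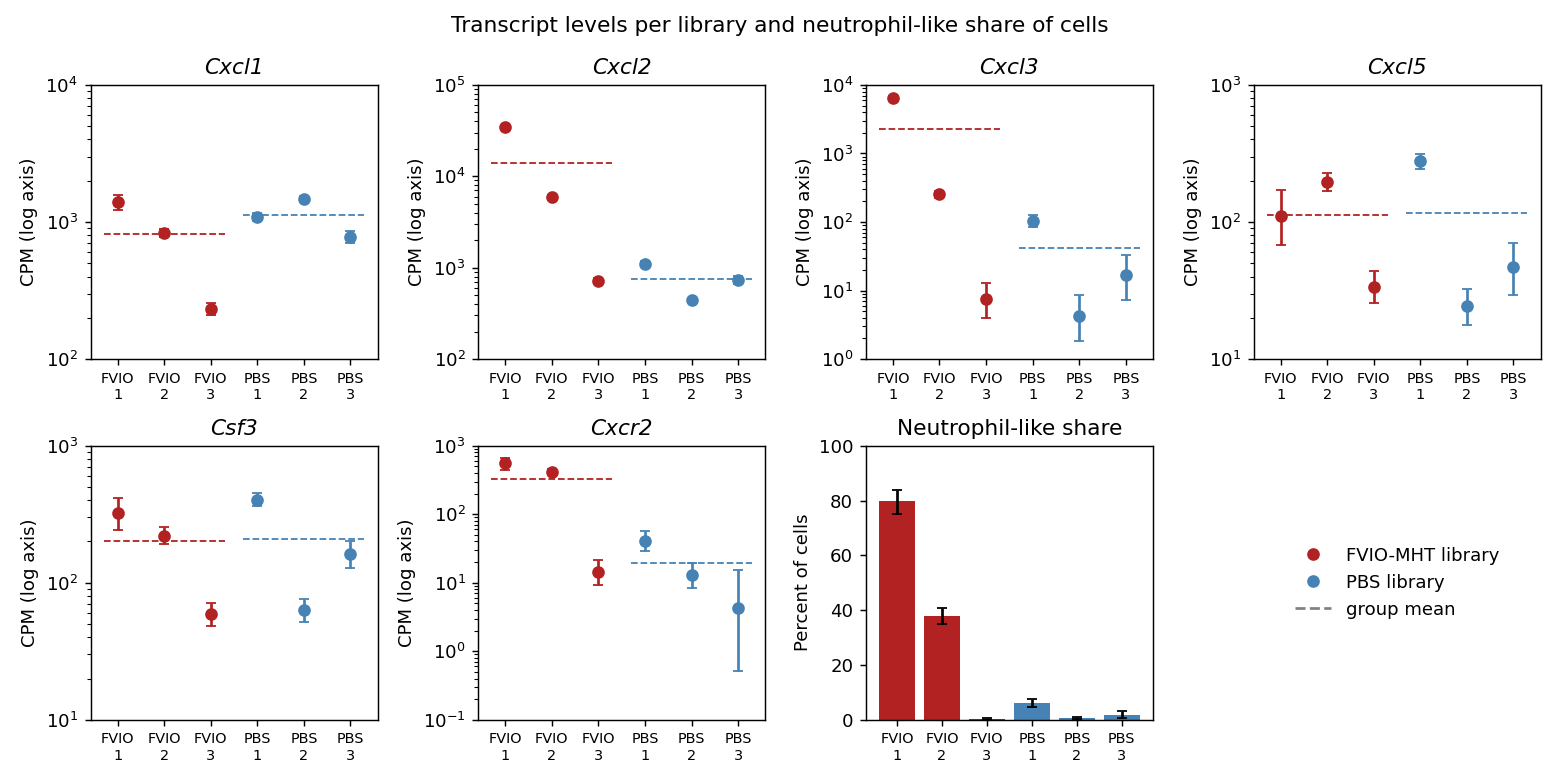
Level of each gene in each library (CPM, log axes; points with exact 95% Poisson intervals for counting error; dashed lines, group means) and the neutrophil-like share of cells (percent, with Clopper-Pearson intervals), FVIO-MHT libraries in red at left and PBS libraries in blue at right. Cxcl2, Cxcl3 and Cxcr2 are high in FVIO-MHT replicates 1 and 2, which hold 79.8% and 37.7% neutrophil-like cells.

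In the edgeR quasi-likelihood test with Benjamini-Hochberg adjustment over 8603 genes, 0.0% of genes and 0 of the 6 described here were called at an adjusted p under 0.05. At an unadjusted p under 0.05 there were 451 genes (5.24%), Cxcl2, Cxcl3 and Cxcr2 among them, and 317 of these (3.68% of genes tested) were higher with FVIO-MHT. DESeq2 called 185 genes, Cxcl2 (adjusted p = 0.0045) and Cxcr2 (adjusted p = 0.0473) included, and gave Cxcl3 no adjusted p. The edgeR log2 fold change of FVIO-MHT over PBS was 4.87 ± 1.54 (SE) for Cxcl2, 6.51 ± 2.37 for Cxcl3 and 4.51 ± 1.37 for Cxcr2, each with an adjusted p of 0.878. It was 0.02 ± 0.82 for Cxcl1 (adjusted p = 0.999), 0.24 ± 0.97 for Cxcl5 (0.996) and 0.36 ± 0.89 for Csf3 (0.994). FVIO-MHT replicate 1 set much of the size: without it the log2 fold changes were 2.14 for Cxcl2, 1.63 for Cxcl3 and 3.40 for Cxcr2, and those of Cxcl1, Cxcl5 and Csf3 were −1.09, −0.03 and −0.58. Summed levels of the 10 neutrophil markers moved with Cxcl2, Cxcl3 and Cxcr2, at 89436, 14497 and 533 CPM in FVIO-MHT replicates 1 to 3, against 3086, 628 and 1005 CPM in PBS replicates 1 to 3. All 10 had UMIs except Ly6g, which was at 0 in replicate 3 of each group.

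Cxcr2, the receptor, was counted almost wholly in neutrophil-like cells wherever these were numerous. They held 100 of 100 Cxcr2 UMIs in FVIO-MHT replicate 1 and 356 of 371 (96.0%) in FVIO-MHT replicate 2, against 28 of 35 (80.0%) in PBS replicate 1, 20 of 24 (83.3%) in PBS replicate 2 and 0 of 2 in PBS replicate 3. In FVIO-MHT replicate 3, with 5 such cells, they held 2 of 25 UMIs, and 13 lay in the unnamed haemoglobin-rich cluster. Within neutrophil-like cells Cxcr2 stood at 698 and 2119 CPM in FVIO-MHT replicates 1 and 2, against 1068 CPM in PBS replicate 1. All other classes had medians at or below 14.3 CPM over libraries, and fibroblast-like cells had 0 Cxcr2 UMIs in each of 4 libraries.

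Median Cxcl2 and Cxcl3 levels were highest in neutrophil-like cells, followed by macrophage/monocyte-like cells. The neutrophil-like share of Cxcl2 UMIs was 90.4%, 78.5% and 2.93% in FVIO-MHT replicates 1 to 3, against 57.8%, 6.07% and 17.6% in PBS replicates 1 to 3. Of all UMIs neutrophil-like cells held 79.2%, 18.8% and 0.101% in the FVIO-MHT libraries, against 3.00%, 0.283% and 0.787% in the PBS libraries. Macrophage/monocyte-like cells, with complement C1q genes, Csf1r and other markers, held 9.60%, 14.5% and 42.1% with FVIO-MHT, against 25.8%, 68.5% and 52.1% with PBS. The unnamed haemoglobin-rich cluster held 30.2% of Cxcl2 UMIs in FVIO-MHT replicate 3, where tumour epithelial-like cells held 11.5%. The main class by Cxcl2 UMIs therefore differed between libraries with and without many neutrophil-like cells, in either group. By level, the median over libraries was 25025 CPM in neutrophil-like cells (range 21124 to 39908 CPM, 3 libraries) and 4065 CPM in macrophage/monocyte-like cells (2466 to 17574 CPM, 6 libraries), and these ranges did not meet. Next came pericyte/smooth muscle-like cells of FVIO-MHT replicate 3, with 1918 CPM (Poisson interval 1410 to 2551). The remaining classes had medians between 148 CPM in tumour epithelial-like and 763 CPM in mammary luminal-like cells, and most of their ranges overlapped. Endothelial-like cells (408 to 507 CPM, 2 libraries) lay above tumour epithelial-like cells (95.1 to 306 CPM, 5 libraries) and skin keratinocyte-like cells (112 to 360.5 CPM, 3 libraries). B/plasma-like cells, which are not known as a source of Cxcl2, gave 307 CPM in 1 library, so levels of that order were not above those of an unrelated class.

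Cxcl3 had a median of 1563 CPM in neutrophil-like cells (792 to 6710 CPM) and 289.6 CPM in macrophage/monocyte-like cells (23.2 to 6167 CPM), ranges that overlapped. Every other class had a median at or below 6.67 CPM. The one other sum with more than 5 Cxcl3 UMIs was fibroblast-like cells of FVIO-MHT replicate 2, with 17 UMIs or 218 CPM. Cxcl3 levels in the myeloid classes followed the library. FVIO-MHT replicate 1 had 6710 CPM in neutrophil-like and 6167 CPM in macrophage/monocyte-like cells, and FVIO-MHT replicate 2 had 792 and 506 CPM in the same classes. PBS replicate 1 had 1563 and 725 CPM.

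**Figure D2:**
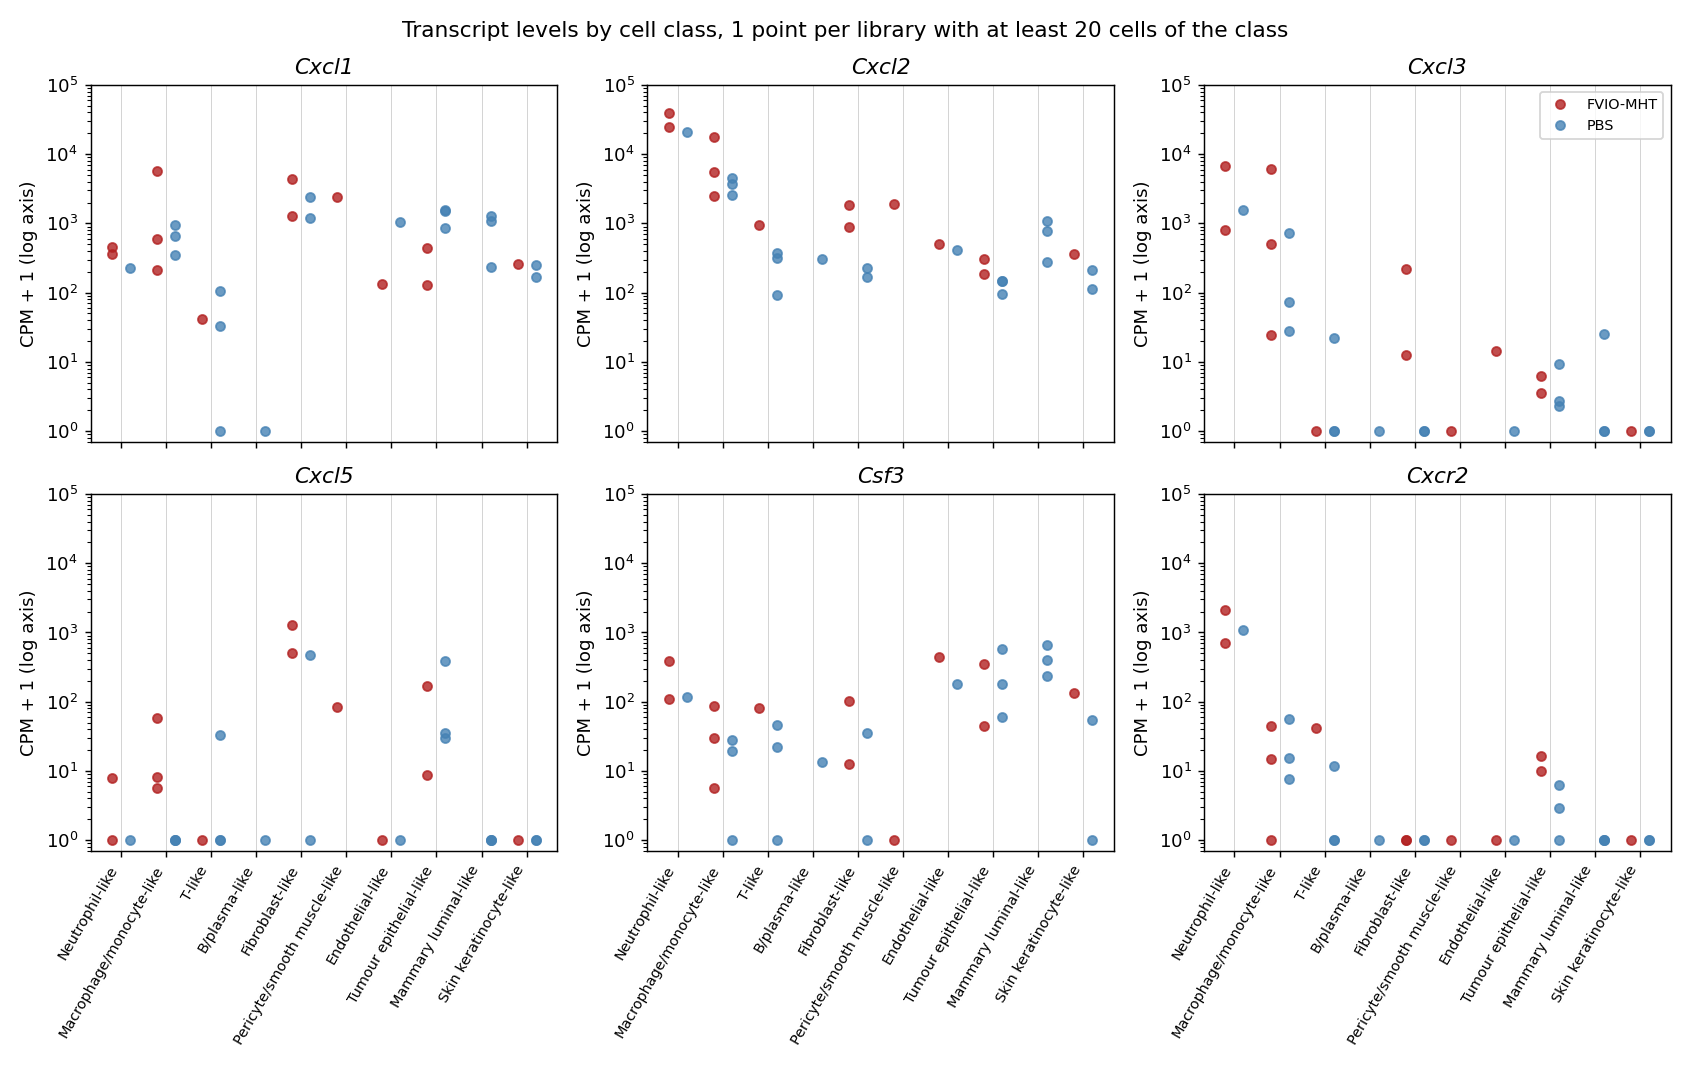
Level of each gene by cell class (CPM + 1, log axes), with 1 point for each library that had 20 or more cells in that class; FVIO-MHT is red, left of PBS in blue, and a point at 1 is a count of 0. Cxcr2 stands high in neutrophil-like cells, Cxcl2 and Cxcl3 in neutrophil-like and macrophage/monocyte-like cells, and Cxcl5 in fibroblast-like cells.

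Cxcl1 was counted mostly outside neutrophil-like cells. No single named class led in all FVIO-MHT libraries. Macrophage/monocyte-like cells held 77.1% of Cxcl1 UMIs in FVIO-MHT replicate 1, against 19.1% of all its UMIs. Fibroblast-like cells held 46.0% in FVIO-MHT replicate 2, against 8.73% of all UMIs. In FVIO-MHT replicate 3, fibroblast-like and tumour epithelial-like cells held 27.6% and 25.6%, against 4.96% and 45.5% of all UMIs. The unnamed haemoglobin-rich cluster, which also carried keratins, held a further 18.3% there, against 30.6% of all UMIs. In PBS replicates 1 to 3 the leading class was tumour epithelial-like cells, which express Epcam and keratins 8 and 18, with 90.0%, 90.3% and 57.1%. Of all UMIs these cells held 65.1%, 83.6% and 51.5%, so their Cxcl1 share in PBS replicates 2 and 3 was near their share of all UMIs. By level, fibroblast-like cells had a median of 1843 CPM (1215 to 4387 CPM, 4 libraries), tumour epithelial-like cells 852 CPM (129 to 1572 CPM, 5 libraries) and macrophage/monocyte-like cells 619 CPM (209 to 5646 CPM, 6 libraries). Those ranges overlapped. Pericyte/smooth muscle-like cells of FVIO-MHT replicate 3 had 2367 CPM (Poisson interval 1798 to 3060). T-like cells had 0 to 104 CPM and B/plasma-like cells 0 of 81337 UMIs, which allows up to 36.9 CPM.

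Cxcl5 was counted in fibroblast-like and tumour epithelial-like cells. Fibroblast-like cells had 1283 and 499 CPM in FVIO-MHT replicates 2 and 3, against 0 and 475 CPM in PBS replicates 2 and 3, where the count of 0 in PBS replicate 2 allows up to 113.9 CPM. They held 85.0%, 57.1% and 72.9% of Cxcl5 UMIs in FVIO-MHT replicates 1 to 3, on 20, 175 and 59 UMIs. Of all UMIs they held 1.69%, 8.73% and 4.96%. In FVIO-MHT replicate 1 the 85.0% came from 3 fibroblast-like cells, with 0 tumour epithelial-like cells in that library. Tumour epithelial-like cells had 169.8 and 7.59 CPM in FVIO-MHT replicates 2 and 3, against 392, 29.1 and 33.8 CPM in PBS replicates 1 to 3. They held 91.0% of Cxcl5 UMIs in PBS replicate 1, 45 of 45 in PBS replicate 2 and 36.4% in PBS replicate 3. Of all UMIs they held 65.1%, 83.6% and 51.5% in these PBS libraries. The leading class was thus the fibroblast-like one in FVIO-MHT replicates 2 and 3 and in PBS replicate 3. Neutrophil-like cells had 1 Cxcl5 UMI among 721 cells.

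Csf3 was counted in tumour epithelial-like cells and in several other classes. Tumour epithelial-like cells held 67.7% and 34.7% of its UMIs in FVIO-MHT replicates 2 and 3, against 93.3%, 76.9% and 55.3% in PBS replicates 1 to 3. Of all UMIs they held 42.9% and 45.5% in those FVIO-MHT libraries, against 65.1%, 83.6% and 51.5% in the PBS libraries. The Csf3 share was thus below the share of all UMIs in FVIO-MHT replicate 3 and PBS replicate 2. Endothelial-like cells, the lining of vessels, had 441 CPM in FVIO-MHT replicate 3 (Poisson interval 303 to 619), against 181 CPM in PBS replicate 2 (49.4 to 464). With 1 library a group of at least 20 such cells there is no test. In FVIO-MHT replicate 2, 19 such cells held 25 of 195 Csf3 UMIs and 2.54% of all UMIs. In PBS replicate 3, 10 cells held 9 of 76 and 1.65%, and in PBS replicate 1, 11 cells held 2 of 356 and 0.826%. The levels of 441 and 181 CPM therefore give no order of the groups. Mammary luminal-like cells, found in PBS libraries in numbers of 23 to 37, had 233, 405 and 662 CPM in PBS replicates 1 to 3. FVIO-MHT replicate 1 held no tumour epithelial-like cell (0 of 331 cells, which allows a share of up to 0.906%). There, 55 of 58 Csf3 UMIs lay in neutrophil-like cells, which held 79.2% of all UMIs. Their level there was 384 CPM (Poisson interval 289 to 499.8), against 107 CPM in FVIO-MHT replicate 2 and 114 CPM (23.6 to 334), on 3 UMIs, in PBS replicate 1.

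**Figure D3:**
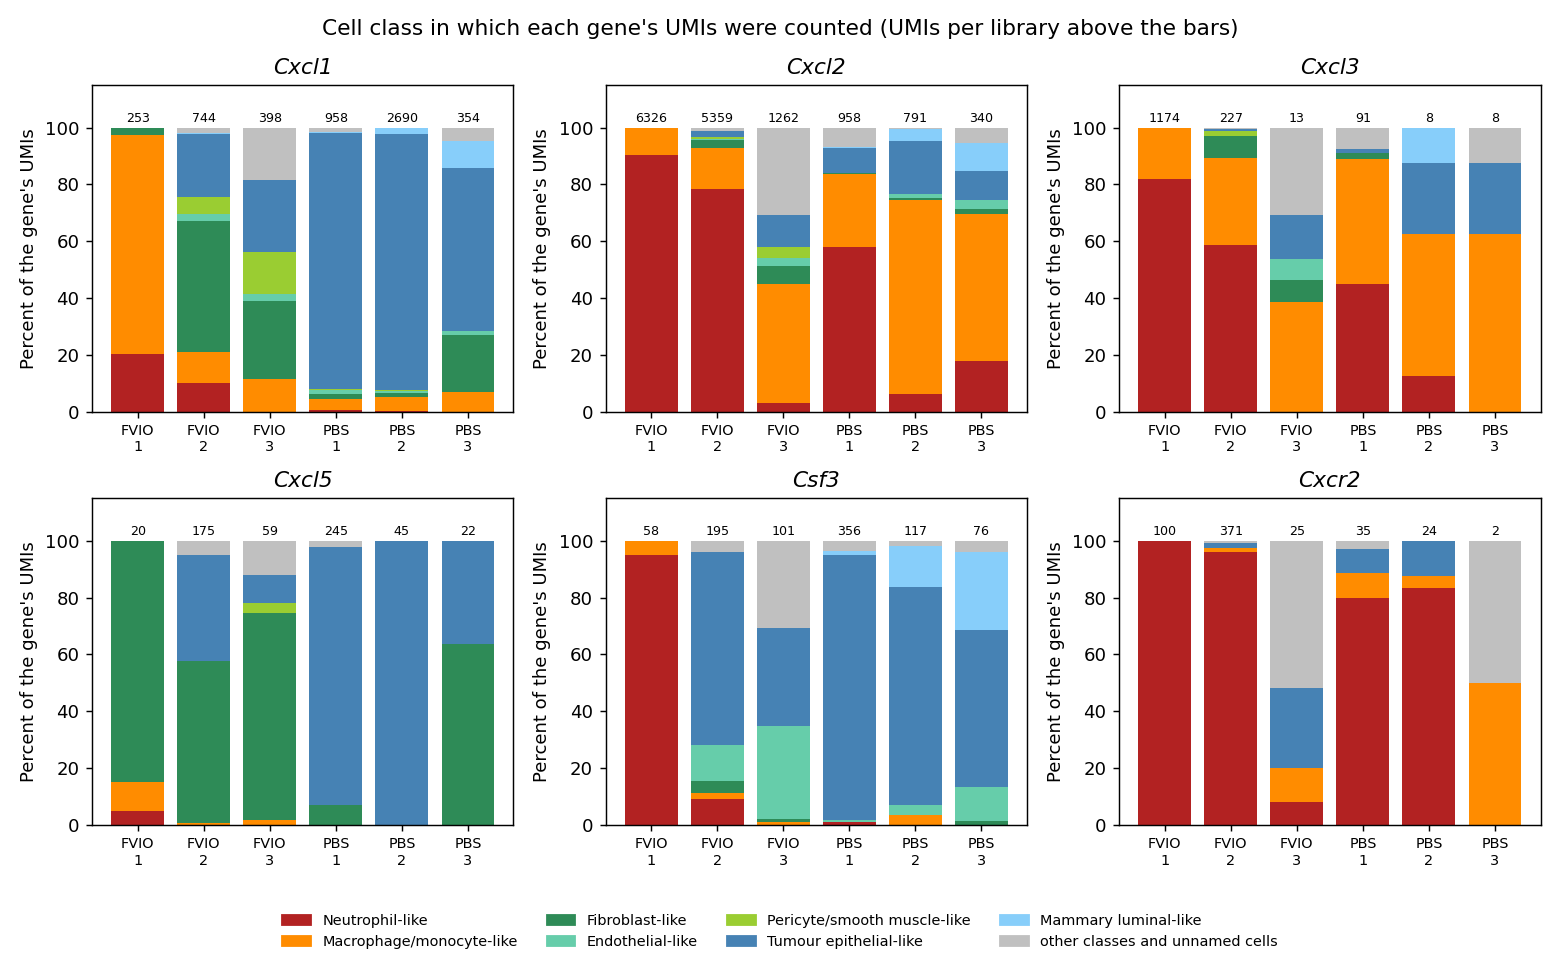
Percent of each gene's UMIs counted in each cell class, by library, FVIO-MHT at left and PBS at right, with the gene's UMIs in clustered cells above each bar. Cxcr2 bars are mostly neutrophil-like except in FVIO-MHT replicate 3 and PBS replicate 3, which have 25 and 2 UMIs; Cxcl1 bars are mostly tumour epithelial-like in the PBS libraries.

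Neutrophil-like cells fell into 2 clusters that were unequally shared. A cluster led by Il1f9, Fpr1 and Retnlg held 257 cells of FVIO-MHT replicate 1 and 39 of FVIO-MHT replicate 2, against 10 of PBS replicate 1. A cluster led by Asprv1, Hdc and G0s2 held 354 cells of FVIO-MHT replicate 2, against 54 of PBS replicate 1. Cxcl2 stood at 39857 and 36831 CPM in the first cluster (FVIO-MHT replicates 1 and 2). In the second it stood at 23592 CPM in FVIO-MHT replicate 2, against 18233 CPM in PBS replicate 1. Cxcr2 had the opposite order within FVIO-MHT replicate 2, with 385 CPM in the first cluster and 2329 CPM in the second, and had 662 CPM in the first cluster of FVIO-MHT replicate 1, against 1280 CPM in the second of PBS replicate 1. Csf3 followed the first cluster, with 388.5 and 385 CPM there in FVIO-MHT replicates 1 and 2. In the second cluster it had 73.4 CPM in FVIO-MHT replicate 2 and 0 UMIs in PBS replicate 1. These are descriptions of clusters of the same cells and were not tested.

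Between groups, neutrophil-like cells could be compared for FVIO-MHT replicates 1 and 2 against PBS replicate 1, which is assumed to vary like the FVIO-MHT libraries. Cxcl2 had 39908 and 25025 CPM with FVIO-MHT, against 21124 CPM in the PBS library (log2 fold change 0.88 ± 1.13, SE). Cxcl1 had 356 and 452 CPM with FVIO-MHT, against 229 CPM in the PBS library (1.02 ± 0.75). For both genes the FVIO-MHT values lay above the PBS value, as they did for 31.2% of the 2584 genes tested. Cxcl3, Csf3 and Cxcr2 overlapped, with log2 fold changes of 1.61 ± 1.67, 1.39 ± 1.41 and 0.53 ± 0.89. The edgeR quasi-likelihood test called 0.0% of genes, with an adjusted p of 0.989 for each of these 5 genes; 43 genes (1.66%) had an unadjusted p under 0.05 and DESeq2 called 1. Cxcl5 was not tested, with 1 UMI in FVIO-MHT and 0 in PBS neutrophil-like cells.

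With neutrophil-like cells left out, Cxcl2 stood at 16223, 1592 and 706 CPM in FVIO-MHT replicates 1 to 3, against 476, 403 and 613 CPM in PBS replicates 1 to 3. Every FVIO-MHT library was above every PBS library, an order met by 5.79% of the 8358 genes tested. Its log2 fold change was 3.44 ± 1.00 (SE; unadjusted p = 0.00583, adjusted p = 0.901 in the edgeR quasi-likelihood test), 1.14 without FVIO-MHT replicate 1 and 0.829 with a 400-gene minimum. The cells left in FVIO-MHT replicate 1 were 64 macrophage/monocyte-like and 3 fibroblast-like cells, with 0 tumour epithelial-like cells, while the PBS libraries kept 437, 1048 and 173 tumour epithelial-like cells. The level of 16223 CPM in FVIO-MHT replicate 1 therefore stood close to the 17574 CPM of its macrophage/monocyte-like cells, and class makeup and level per class cannot be told apart in this sum. Cxcl3 had 5665, 129.7 and 7.50 CPM with FVIO-MHT, against 58.9, 3.80 and 17.5 CPM with PBS, and the groups overlapped. Its log2 fold change was 5.96 ± 1.92 (adjusted p = 0.901), 1.28 without FVIO-MHT replicate 1 and 1.70 with a 400-gene minimum. Cxcl1, Cxcl5 and Csf3 differed by 0.75 ± 0.86, 0.77 ± 0.99 and −0.73 ± 0.71, with adjusted p from 0.924 to 0.947. Of all genes 0.0% were called by edgeR, 441 (5.28%) had an unadjusted p under 0.05, and DESeq2 called 23, Cxcl2 among them (adjusted p = 0.00909). Cxcr2 had too few UMIs for this test, 38 in FVIO-MHT and 13 in PBS libraries.

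Macrophage/monocyte-like cells differed in Cxcl2 and Cxcl3 by less than the spread between libraries. Cxcl2 had 17574, 5612 and 2466 CPM in FVIO-MHT replicates 1 to 3, against 4479, 3652 and 2583 CPM in PBS replicates 1 to 3. Cxcl3 had 6167, 506 and 23.2 CPM with FVIO-MHT, against 725, 27.0 and 73.0 CPM with PBS. Cxcl1 had 5646, 586 and 209 CPM with FVIO-MHT, against 653, 937 and 350 CPM with PBS. The 3 genes shared a pattern in which FVIO-MHT replicate 1 was the highest of the 6 libraries and FVIO-MHT replicate 3 the lowest. The log2 fold changes were 1.39 ± 0.69, 3.27 ± 1.56 and 1.85 ± 1.00 for Cxcl2, Cxcl3 and Cxcl1 (SE; adjusted p = 0.979 each, edgeR quasi-likelihood test over 2058 genes). Without FVIO-MHT replicate 1 they were 0.16, 0.02 and −0.76. The test called 0.0% of genes, 90 (4.37%) had an unadjusted p under 0.05, and DESeq2 called 2, as edgeR did without PBS replicate 1.

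Different clusters supplied this class. A cluster led by Mmp12 and Arg1 held most of it in 5 libraries, and a cluster led by C1qc and Apoe supplied 391 of 437 cells in FVIO-MHT replicate 3. Within the Mmp12 and Arg1 cluster alone Cxcl2 stood at 17765, 5832 and 3830 CPM in FVIO-MHT replicates 1 to 3, against 4748, 3748 and 2750 CPM in PBS replicates 1 to 3. Neutrophil markers summed to 7180, 4296 and 1059 CPM in macrophage/monocyte-like cells of FVIO-MHT replicates 1 to 3, against 3228, 856 and 1736 CPM in PBS replicates 1 to 3, with 7 to 9 of the 10 found and Ly6g at 0 in each. Their part in the Cxcl2 and Cxcl3 values was not tested.

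In tumour epithelial-like cells Cxcl1 was lower with FVIO-MHT. It had 434 and 129 CPM in FVIO-MHT replicates 2 and 3 (281 ± 215, SD, n = 2), against 1515, 1572 and 852 CPM in PBS replicates 1 to 3 (1313 ± 400, SD, n = 3). The groups did not overlap, an order met downwards by 9.54% of the 7523 genes tested. The log2 fold change was −2.36 ± 0.52 (SE; unadjusted p = 0.00109, adjusted p = 0.34, edgeR quasi-likelihood test), so the gene did not pass the threshold. The settings under which it passed included DESeq2 (adjusted p = 0.0022), no low-count filter, Leiden resolution 2 and a 400-gene minimum, and the log2 fold change ran from −3.41 to −1.73 over all 14 alternatives, with adjusted p from 1.24e-05 to 0.996. At Leiden resolution 2 and with 400 genes the class held other cells. A Pthlh-led cluster (406 cells) was unnamed at resolution 2. With 400 genes clusters led by Prss12 (320 cells) and Lcn2 (296 cells) were unnamed. In the main setting the Pthlh-led cluster held 98 of 206 cells of the class in FVIO-MHT replicate 2, against 243 of 437 in PBS replicate 1. The part of this change in the passing values was not tested. Of all genes 0.0% were called by edgeR in the main setting, 700 (9.3%) had an unadjusted p under 0.05, and DESeq2 called 25. Without PBS replicate 1 edgeR called 2 genes. Without FVIO-MHT replicate 2 it called 233, with Cxcl1 at an adjusted p of 0.0037, but that fit sets 1 FVIO-MHT library against 3 PBS libraries, so its spread comes from the PBS libraries alone and the lone library is assumed to vary like them.

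The clusters that make up this class were unequally shared as well, and the order of Cxcl1 was the same in each cluster with at least 20 cells in libraries of both groups. In cycling cells, led by Cenpf and Hmmr, Cxcl1 had 83.1 and 124 CPM in FVIO-MHT replicates 2 and 3, against 647 and 507 CPM in PBS replicates 1 and 2. In cells led by the imprinted RNA H19 it had 102 and 87.6 CPM in FVIO-MHT replicates 2 and 3, on 5 and 2 UMIs, against 809.5, 772 and 310 CPM in PBS replicates 1 to 3. Cells led by Pthlh had 654 CPM in FVIO-MHT replicate 2, against 1856 and 981 CPM in PBS replicates 1 and 2. Another cluster, led by Hes1 and with the heat-shock genes Dnajb1 and Hspa1b among its leading genes, held 6 and 2 cells of FVIO-MHT replicates 2 and 3, against 24, 525 and 82 cells of PBS replicates 1 to 3. Its Cxcl1 levels in the PBS libraries ran from 1152 to 2081 CPM.

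The other members in tumour epithelial-like cells differed less. Cxcl2 had 306 and 184 CPM in FVIO-MHT replicates 2 and 3, against 146, 95.1 and 148 CPM in PBS replicates 1 to 3 (log2 fold change 0.83 ± 0.34, SE; adjusted p = 0.505, edgeR quasi-likelihood test). The groups did not overlap, an order met upwards by 17.4% of genes tested. Neutrophil markers summed to 744 and 213 CPM in these cells of FVIO-MHT replicates 2 and 3, against 367, 211 and 544 CPM in PBS replicates 1 to 3, with 8 or 9 of the 10 found, Ly6g at 0 in 4 of the 5 libraries and Csf3r at 0 in PBS replicate 2. Their part in the Cxcl2 values was not tested. Csf3 had 345 and 44.3 CPM with FVIO-MHT, against 583, 58.3 and 177 CPM with PBS (−0.63 ± 0.91, adjusted p = 0.859). Cxcl5 differed by −0.995 ± 1.20 (adjusted p = 0.831). For Csf3 and Cxcl5 the groups overlapped, and FVIO-MHT replicate 2 and PBS replicate 1 were the high libraries of their groups. In both of those libraries the Pthlh-led cluster had the most Csf3, with 461 CPM in FVIO-MHT replicate 2, against 654 CPM in PBS replicate 1.

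Fibroblast-like cells, which make collagen and other matrix, could be compared for replicates 2 and 3 of each group. Cxcl2 had 1860 and 894 CPM with FVIO-MHT, against 228 and 170 CPM with PBS, on 222 and 11 UMIs. The groups did not overlap, as for 14.9% of the 1027 genes tested in that direction, and the log2 fold change was 2.82 ± 0.76 (SE; unadjusted p = 0.00722, adjusted p = 1.00, edgeR quasi-likelihood test). Without FVIO-MHT replicate 3 it was 3.24, with an adjusted p of 0.0035, in a fit of 1 FVIO-MHT library against 2 PBS libraries whose spread comes from the PBS libraries alone. Cxcl1 had 4387 and 1277 CPM with FVIO-MHT, against 1215 and 2409 CPM with PBS (0.71 ± 0.79), and the groups overlapped. Cxcl5 differed by 1.95 ± 1.23 (adjusted p = 1.00), and by 0.88 without FVIO-MHT replicate 2 and 0.94 without PBS replicate 2, the library with 0 Cxcl5 UMIs. Of all genes 0.0% were called by edgeR, 35 (3.41%) had an unadjusted p under 0.05, and DESeq2 called 2. Without FVIO-MHT replicate 2, FVIO-MHT replicate 3 or PBS replicate 3, edgeR called 7, 16 and 6 genes, each time with 1 library in a group that is assumed to vary like the other group. Neutrophil markers summed to 1411 and 104 CPM in fibroblast-like cells of FVIO-MHT replicates 2 and 3, against 455 and 475 CPM in PBS replicates 2 and 3, with 3 to 8 of the 10 found and Retnlg and Ly6g at 0 in all 4. Their part in the Cxcl2 values was not tested. Cxcl3, Csf3 and Cxcr2 had too few UMIs here for the test.

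**Figure D4:**
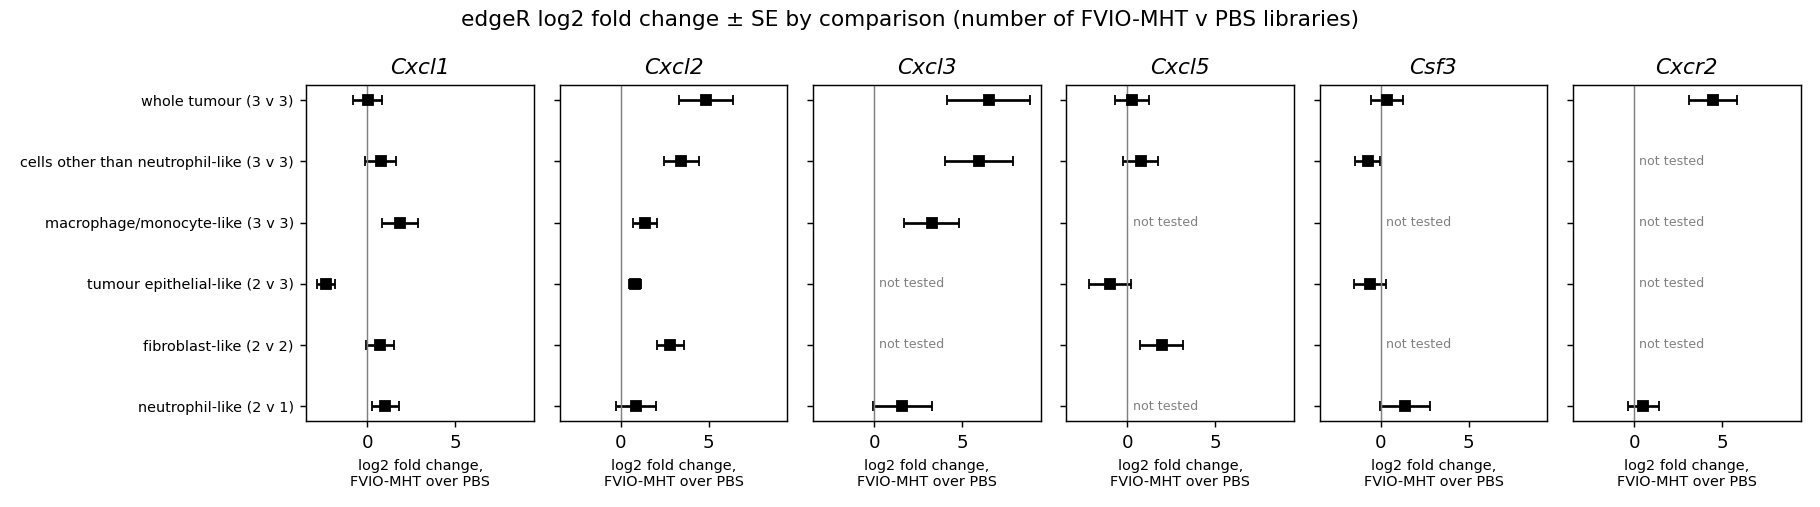
Log2 fold change of FVIO-MHT over PBS (x axis; squares, with bars of 1 SE) for each gene in each comparison (rows, with the number of FVIO-MHT and PBS libraries). Cxcl2 lies right of 0 in all 6 comparisons, and Cxcl1 lies left of 0 in tumour epithelial-like cells, at −2.36; no value passed the adjusted threshold.

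Genes that act around these 6 were described from lists chosen with earlier results in view, and none of their genes was called in any of the 6 comparisons by edgeR. In whole libraries the inducing cytokines (IL-1, TNF and the like) had a median log2 fold change of 2.701 over 8 tested of 10, against −0.04 over all genes, and 4 of them had an unadjusted p under 0.05, all higher with FVIO-MHT, where 3.68% of all genes did so. These 4 were highest in FVIO-MHT replicates 1 and 2, the libraries with the highest neutrophil-like shares and neutrophil marker sums. The order of the other libraries differed: PBS replicate 1, next in share at 5.96%, had the lowest Osm level, 21.6 CPM. The part of neutrophil-like cells in the list values was not tested. With neutrophil-like cells left out, the medians were 0.89 for the inducing cytokines, 0.38 for the NF-kB feedback and mRNA decay genes, 1.59 for the attractant receptors and leukotriene enzymes and 0.17 for the adhesion genes, against −0.03 over all genes. The colony-stimulating factor genes had a median of 0.744 there. Other CXC ligands and receptors had 0.995, above their whole-library median of 0.617. Il1b, the cytokine that induces these chemokines, had 9199, 2293 and 487 CPM in FVIO-MHT replicates 1 to 3, against 366, 340 and 671 CPM in PBS replicates 1 to 3 (log2 fold change 3.74 ± 1.22, SE; adjusted p = 0.878). The other 3 were Osm at 2.68 ± 0.86, Tnf at 3.02 ± 1.07 and the IL-1 receptor antagonist Il1rn at 3.51 ± 1.29. Csf3r, the receptor for Csf3 and one of the neutrophil markers, had 1308, 298.6 and 14.3 CPM with FVIO-MHT, against 56.8, 4.84 and 27.6 CPM with PBS (4.84 ± 1.63, adjusted p = 0.878). It and Csf1r, the macrophage growth factor receptor (1.07 ± 0.46), were the colony-stimulating factor genes with an unadjusted p under 0.05, and the list's median was 1.10 over 5 tested of 6.

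Receptors for other neutrophil attractants and leukotriene enzymes had a median log2 fold change of 3.51 over 6 tested of 8. C5ar1, the C5a receptor, stood at 3.96 ± 0.98, Alox5ap at 3.29 ± 1.08, the platelet-activating factor receptor Ptafr at 3.73 ± 1.29 and the formyl peptide receptor Fpr2 at 4.33 ± 1.52 (SE), each with an adjusted p of 0.878 in the edgeR quasi-likelihood test. Among other CXC genes Pf4 stood at 3.92 ± 1.22, Cxcl12 at 1.60 ± 0.87 and its receptor Cxcr4 at 0.62 ± 0.61, with a median of 0.62 over 5 tested of 9. The NF-kB feedback and mRNA decay genes had a median of 1.48 over 10 tested, with Cebpb (2.35 ± 1.01) past an unadjusted p of 0.05. Among 9 tested adhesion genes, with a median of 1.24, the integrin Itgam stood at 3.41 ± 1.14 and the adhesion ligand Vcam1 at −1.33 ± 0.53. Vcam1 was also counted in tumour epithelial-like cells, where it differed by −1.52 ± 0.35 (adjusted p = 0.34 in the edgeR quasi-likelihood test).

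In tumour epithelial-like cells the NF-kB list stood the other way. Its median log2 fold change was −1.04 over 10 tested, against 0.01 over all genes, and 5 had an unadjusted p under 0.05, all lower with FVIO-MHT, where 5.26% of all genes did. Nfkb1, which encodes an NF-kB subunit, had 165 and 138 CPM in FVIO-MHT replicates 2 and 3, against 373, 478 and 295 CPM in PBS replicates 1 to 3 (−1.45 ± 0.33, SE; adjusted p = 0.34, edgeR quasi-likelihood test). Nfkbia, the inhibitor that NF-kB induces, had 1128 and 719 CPM with FVIO-MHT, against 3336, 1917 and 1316 CPM with PBS (−1.35 ± 0.42, adjusted p = 0.43). Il1a, an inducing cytokine, had 2.61 and 3.80 CPM with FVIO-MHT, against 21.1, 32.4 and 16.9 CPM with PBS (−2.92 ± 0.70, adjusted p = 0.34). Its FVIO-MHT values rest on very few UMIs, since 3 UMIs amount to 7.83 and 3.80 CPM in FVIO-MHT replicates 2 and 3. The groups did not overlap for these 3 genes, which were singled out after their values were seen. That order was met downwards by 9.54% of genes tested. In macrophage/monocyte-like cells the NF-kB list had a median of 0.75 over 7 tested and Il1b differed by 0.11 ± 0.53.

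The genes whose levels ran most like each of the 6 were found by Pearson correlation of log2(CPM + 10) over 36 sums of a library and a class, among 9419 genes. These sums share libraries and depth, so the values are descriptions. Cxcr2 ran most like Retnlg (r = 0.908), Stfa2l1 (0.900) and Hdc (0.898), the first of which is a neutrophil marker used in naming. Cxcl2 ran most like Clec4e (0.921), a receptor for fungal and mycobacterial lipids, the inflammasome gene Nlrp3 (0.899) and Trem1 (0.893), and Cxcl3 like the neutrophil collagenase Mmp8 (0.934), Fpr2 (0.892) and Cxcl2 (0.880). Cxcl5 ran most like Osr2 (0.782), the collagen gene Col5a1 (0.742) and Wisp2 (0.722). Cxcl1 ran most like Anxa1 (0.712), Fos (0.690) and App (0.690), and Csf3 like Lcn2 (0.658), Dhx57 (0.628) and Prkar2b (0.615). Within the set, Cxcl1 and Cxcl2, neighbours on chromosome 5, had r = 0.231.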

How the data were processed

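The deposited matrices hold UMI counts per gene and barcode for 6 libraries, 5000 barcodes each. Per the submitters' processing notes, the authors aligned with STAR 2.7.2b to mm10. The sources used here name no counting tool, strand setting or way of choosing barcodes. From these counts, 65 of 27998 rows that repeated a symbol with identical counts were dropped. Barcodes with at least 200 detected genes were kept (6730), with no mitochondrial limit (highest share 18.1%). Scrublet called 39 doublets (0.579%), left out of clustering, and doublets are otherwise treated as not removed. The 6691 cells were scaled to 10000 counts, and 2000 variable genes without the 6 described, 30 components, 15 neighbours and Leiden resolution 1 (scanpy 1.11.5) gave 17 clusters.

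A cluster took a class name from at least 3 listed markers, each found in at least 5% of its cells and at least 2-fold over the clusters' median, with no rival class and leading genes not pointing elsewhere; details of this rule were settled after leading genes were seen. T and NK markers counted as 1 family. The tumour epithelial-like clusters have none of their markers among their 10 leading genes.

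UMIs were added up by library for all kept barcodes (whole tumour), over cells other than neutrophil-like and over classes with at least 20 cells. FVIO-MHT and PBS were compared by edgeR 4.0.16 (quasi-likelihood test, TMM, filterByExpr, group only, Benjamini-Hochberg over all genes tested, adjusted p under 0.05) in R 4.3.3, with DESeq2 1.42.0 as an alternative. SE is the log2 fold change over the square root of F. The scripts were tested on simulated data. Poisson and Clopper-Pearson intervals (95%) and the limit for a count of 0 (3 counts) cover counting error only. The 6 genes are named in every comparison. List genes are named at an unadjusted p under 0.05 in whole tumours (at most 5 a list), besides Csf3r, Il1b, Cxcl12 and Cxcr4. Nfkb1, Nfkbia and Il1a are named outside this rule, after their values in tumour epithelial-like cells were seen. The 3 most like genes are named for each of the 6. The genes and lists were chosen with earlier results of these data known. Gene positions are from GENCODE (GRCm38) and upstream sequences from RefSeq.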

Additional observations from a re-analysis of the deposited data

Results flagged for a closer look

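Barcodes under the 200-gene minimum, which the reported comparisons leave out, also held transcripts of the 6 genes, and in some FVIO-MHT libraries at levels above those of the same barcodes in every PBS library. Cxcl2 stood at 44254 and 17290 CPM in FVIO-MHT replicates 1 and 2, against 7017, 3528 and 3692 CPM in PBS replicates 1 to 3. Cxcl3 stood at 5331 CPM in FVIO-MHT replicate 1, against at most 537 CPM in the PBS libraries. Cxcr2 stood at 461 and 1021 CPM in FVIO-MHT replicates 1 and 2, against 311, 210.2 and 193 CPM in PBS replicates 1 to 3. Csf3 reached 379 CPM in FVIO-MHT replicate 1 and Cxcl1 872 CPM in the same library, against at most 178 and 659 CPM in PBS. Cxcl5 reached 112 CPM in FVIO-MHT replicate 2, against at most 31.9 CPM in PBS. FVIO-MHT replicate 3 lay within or below the PBS range for all 6 genes, with 2322 CPM for Cxcl2 and 111 CPM for Cxcr2.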

How the results depend on the processing

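Of 423 results recomputed under another setting, 355 kept their direction and their side of the threshold. Leaving out the barcodes that PBS replicates 2 and 3 share, an alternative chosen after seeing the data, changed no direction or call, and neither did drawing the clusters with the 6 genes, using all 5000 barcodes of the whole tumour or leaving out the Scrublet calls there. The values below are log2 fold changes of FVIO-MHT over PBS by edgeR unless DESeq2 is named, and for each that differs the cause was not tested.

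In whole tumours Cxcl1 stood at −0.24 with a 400-gene minimum, −0.45 with library totals in place of TMM and −0.18 without the low-count filter. Cxcl5 stood at −0.0438 and Csf3 at −0.0877 with library totals, and Csf3 at −0.95 with 400 genes. DESeq2 gave 5.03 for Cxcl2 and 4.67 for Cxcr2, both past the threshold, and called 185 genes, while 2 were called without the filter. In cells other than neutrophil-like, Cxcl1 stood at −1.17 with 400 genes, a fit that lacked FVIO-MHT replicate 1. Cxcl2 passed at 3.46 with DESeq2 and, without the filter, at 3.23 (adjusted p = 8.75e-05), where Cxcl3 passed at 5.73 (adjusted p = 4.49e-13). There, 23 genes were called by DESeq2 and 189 without the filter.

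In macrophage/monocyte-like cells Cxcl1 stood at −1.15 and Cxcl2 at −0.021 with 400 genes. That fit lacked FVIO-MHT replicate 1, which had fewer than 20 such cells. At Leiden resolution 2 Cxcl1 stood at −1.27. There a cluster of 144 cells led by Pf4 and Arg1, best matched by macrophage/monocyte markers, was unnamed and so outside the class. Cxcl3 passed at 3.04 without the filter. Calls numbered 2 with DESeq2 and 26 without the filter. In tumour epithelial-like cells Cxcl1 passed at −3.03 with 400 genes (adjusted p = 0.0448), −2.36 with DESeq2, −3.13 at Leiden resolution 2 (adjusted p = 0.0381) and −2.41 without the filter. Calls there numbered 4, 25, 4 and 151 in the same order. Clusters led by Prss12 and Lcn2 with 400 genes, and by Pthlh at Leiden resolution 2, were unnamed and so outside the class. Fibroblast-like cells had 2 calls with a 100-gene minimum, 2 with DESeq2 and 12 without the filter. In neutrophil-like cells Cxcr2 stood at −0.51 with 100 genes. That fit took in all 6 libraries, with 1463, 1261 and 80 such cells in FVIO-MHT replicates 1 to 3, against 463, 50 and 77 in PBS replicates 1 to 3. The set of libraries thus changed along with the gene minimum. DESeq2 and the fit without the filter called 1 gene each. The median log2 fold change of all genes in neutrophil-like cells was 0.17 with TMM and −0.06 with library totals.

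Leaving out 1 library at a time gave these ranges. In whole tumours they were −1.09 to 0.46 for Cxcl1, −0.28 to 1.91 for Cxcl5 and −0.58 to 1.21 for Csf3. In cells other than neutrophil-like they were −1.05 to 1.25 for Cxcl1, −1.88 to 0.14 for Csf3 and 0.11 to 2.48 for Cxcl5. In macrophage/monocyte-like cells they were −0.76 to 2.42 for Cxcl1 and 0.018 to 5.64 for Cxcl3, with 0 to 2 calls. In tumour epithelial-like cells they were −3.41 to −1.73 for Cxcl1, −4.36 to 1.27 for Cxcl5 and −2.66 to 0.65 for Csf3, with 0 to 233 calls. In fibroblast-like cells they were −0.67 to 1.31 for Cxcl1, 1.98 to 3.24 for Cxcl2 and 0.88 to 8.86 for Cxcl5, with 0 to 16 calls. The value of 8.86 sets Cxcl5 against PBS replicate 2 alone, which has 0 UMIs of it, and so depends on the prior count. The neutrophil-like share differed by 16.2 to 56.0 percentage points over the same libraries left out, and by 12.9 points with 400 genes.

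Whether the replicate numbers pair the libraries is not given in the labels. Deviations of same-numbered libraries had correlations of 0.156, 0.0186 and −0.0846, and those of other pairs ran from −0.231 to 0.31. So few correlations cannot show or exclude a pairing. With replicate number as a block, Cxcl1 stood at −0.55 in whole tumours and −0.25 in cells other than neutrophil-like. In tumour epithelial-like cells the block gave 34 calls, Cxcl1 among them at −2.39 (adjusted p = 0.0197), with Cxcl5 at 0.95 and Csf3 at 0.32, and in fibroblast-like cells it gave 2 calls.

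Neutrophil-like cells allowed no block, no library left out and no 400-gene fit, and fibroblast-like cells no 400-gene fit. The 400-gene fits of macrophage/monocyte-like cells and of cells other than neutrophil-like lacked FVIO-MHT replicate 1. Without the filter, genes with few UMIs enter the dispersion estimate. Depth limits the rarer genes: in fibroblast-like cells of PBS replicates 2 and 3 Cxcl2 rested on 11 UMIs, and Cxcr2 had 2 UMIs in all clustered cells of PBS replicate 3. A p that misses the threshold does not show that the groups are alike.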
